A study of Mus musculus with 3 samples.

Results

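CC chemokines are small secreted proteins that attract leukocytes, and 10 of their genes were followed here across cultures of sorted mouse synovial cells on plates of 3 stiffness levels. The genes were Ccl2, Ccl3, Ccl4, Ccl5, Ccl6, Ccl7, Ccl8, Ccl9, Ccl11 and Ccl20, and all 10 were among the 56833 genes of the deposited expression table. They were chosen by name, but with earlier results of these data known. Shares of all genes set beside them below are therefore a description and no independent test of the family. The cells came from ankle synovium of Efhd1CreER; Ai9 mice, in which a Cre recombinase driven from the Efhd1 gene switches on the red reporter tdTomato of the Ai9 allele, and they were sorted for tdTomato by flow cytometry. The labels call them telocytes, an interstitial cell type with long thin processes. Both alleles were carried by every group, and every culture was of cells sorted for tdTomato, so there was no culture of unlabelled cells. Sorted cells were kept for 24 h on collagen-coated CytoSoft plates that were soft (0.2 kPa), intermediate (8 kPa) or stiff (64 kPa), and RNA was sequenced from stranded libraries. The question was how matrix stiffness alters these cells. The reporter marks any cell in which the Efhd1-driven Cre has acted, whatever the cell expresses later. The age and number of the mice, and whether their cells were pooled, are not given in the sources used here.

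Each level had 1 library, so differences could not be checked against replicates, and a difference between stiffness levels cannot be told apart from a difference between cultures. No p-value is given for the same reason. The libraries held 25487064 (soft), 28081600 (intermediate) and 26474862 (stiff) reads. Levels are given as normalized counts, which are read counts per gene after division by the library's size factor, with 1 read worth 1.03, 0.943 and 1.03 normalized counts in that order. Differences are log2 ratios of these values after adding a pseudocount of 1. Brackets after a ratio hold its exact 95% Clopper-Pearson interval, computed from the reads without a pseudocount, and such intervals cover counting error only.

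Chemokines bind G protein-coupled receptors on leukocytes and guide them along concentration gradients into inflamed tissue. CC chemokines carry adjacent cysteines near the amino terminus, and most of their mouse genes lie in a cluster on chromosome 11. Stromal fibroblasts make monocyte attractants such as Ccl2 and Ccl7 when stimulated by cytokines, while macrophages are a well-known source of Ccl3, Ccl4, Ccl6 and Ccl9. In arthritic joints these proteins are known for drawing monocytes and T cells into the synovium.

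The labelled cell type was checked against marker genes. Pdgfra, a telocyte and fibroblast marker, stood between 5118 and 6298 normalized counts in the 3 libraries, and Cd34 between 235 and 318. Efhd1 itself had 10, 5 and 3 reads in the soft, intermediate and stiff library. Summed over 8 fibroblast markers, the level was 216169 (soft), 259035 (intermediate) and 310046 (stiff) normalized counts. Most of that sum came from Col1a1 and Col1a2: between stiff and soft 4 of the 8 markers were higher and 4 lower, with a median log2 ratio of 0.06. Macrophage markers were also present in every library: none of 12 was at 0, and their sum was 29005, 35739.8 and 62439.7 normalized counts from soft to stiff. All 12 were higher in the stiff than in the soft library, with a median log2 ratio of 1.25, and all 12 were higher in the intermediate than in the soft library, with a median of 0.44. The defining T and NK cell genes Cd3e, Cd3d and Ncr1 had no read, nor had the B cell genes Cd79a and Ms4a1, the neutrophil genes S100a9, Ly6g and Retnlg, the dendritic cell genes Flt3, Cd209a and Clec9a, the mast cell genes Cpa3, Fcer1a and Tpsb2, or the erythroid genes Hba-a1 and Hbb-bs. With no read seen, up to 3 reads remain possible at a one-sided 95% level (3.08, 2.83 and 3.08 normalized counts from soft to stiff). The other neutrophil-listed genes Mmp8 and S100a8 did have reads, at 1411 to 2428 and 202 to 215 normalized counts, as did the basophil protease Mcpt8 at 742 to 1134. Of the T and NK cell list Trac, the constant part of the T cell receptor alpha chain, had 7, 19 and 29 reads from soft to stiff, with a stiff to soft log2 ratio of 1.91 [0.83 to 3.49]. The dendritic cell gene Zbtb46 had 61, 85 and 65 reads, and Kit, a mast cell marker, had 41, 41 and 44. The other genes of these lists had at most 3 reads in a library. Endothelial markers summed to between 52.3 and 73.8 normalized counts, but did not share 1 direction. From soft to stiff, Pecam1 had 12, 13 and 4 reads and Cdh5 had 5, 3 and 0. Kdr had 21, 27 and 45 reads, Tek 13, 22 and 21, and Tie1 0, 0 and 2. Since these are bulk libraries, a lower level can mean fewer cells of a type or less RNA per cell, and these cannot be told apart.

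Promoters of the members that passed the fold threshold used below, and of Ccl9, are shown because the nuclear factor NF-kappaB is the best known inducer of this family. The RefSeq table used holds promoters for 5 of the 10 members, on build GRCm38.p6: Ccl3, Ccl6, Ccl8, Ccl9 and Ccl20. Ccl2, Ccl4, Ccl5, Ccl7 and Ccl11 had no entry. Each sequence covers the 250 bases before the start, 5′ to 3′ on the gene's strand. Capitals mark a match to the NF-kappaB consensus on either strand. Ccl20 is at chr1:83116516-83116765 (plus strand), Ccl9 at chr11:83578637-83578886, Ccl6 at chr11:83593088-83593337 and Ccl3 at chr11:83649379-83649628 (all 3 on the minus strand).
Ccl20: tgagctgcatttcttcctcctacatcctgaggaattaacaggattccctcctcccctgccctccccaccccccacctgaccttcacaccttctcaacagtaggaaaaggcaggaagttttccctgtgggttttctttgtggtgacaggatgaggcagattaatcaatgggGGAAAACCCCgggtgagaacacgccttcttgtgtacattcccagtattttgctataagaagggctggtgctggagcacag
Ccl9: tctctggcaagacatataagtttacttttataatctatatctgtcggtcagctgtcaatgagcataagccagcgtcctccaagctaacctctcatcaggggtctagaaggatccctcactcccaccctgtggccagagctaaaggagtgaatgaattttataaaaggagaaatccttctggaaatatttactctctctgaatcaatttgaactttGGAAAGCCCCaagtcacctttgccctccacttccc
Ccl6: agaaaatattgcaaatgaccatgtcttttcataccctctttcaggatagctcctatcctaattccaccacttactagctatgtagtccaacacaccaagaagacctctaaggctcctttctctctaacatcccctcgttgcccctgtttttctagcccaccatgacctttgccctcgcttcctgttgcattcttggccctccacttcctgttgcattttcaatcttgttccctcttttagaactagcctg
Ccl3: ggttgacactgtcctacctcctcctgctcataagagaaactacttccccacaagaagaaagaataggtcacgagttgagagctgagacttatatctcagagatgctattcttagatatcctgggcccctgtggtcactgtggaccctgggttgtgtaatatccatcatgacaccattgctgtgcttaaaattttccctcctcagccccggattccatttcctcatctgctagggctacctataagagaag

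An NF-kappaB match was found in the promoters of 2 of the 5 members. In Ccl20 it spans bases -80 to -71 from the start, and in Ccl9 bases -35 to -26. The motif occurs in 7.25% of the 32851 promoters of that table over the same length. An AP-1 motif (TGANTCA) lay only in Ccl9 among the 5, at -53 to -47, against 6.75% of all promoters. A TEAD motif (GGAATG) lay only in Ccl20, at -45 to -40, against 12.6%. No CArG box, the motif of the SRF factor, was found in any of the 5, against 1.47% of all. The NFAT core (GGAAA) was found in 4 of the 5, all but Ccl6, and in 55.6% of all promoters, and in Ccl20 and Ccl9 1 of its matches overlaps the NF-kappaB match. Matches were searched on both strands and describe letters only.

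Taken as a pool, the 10 genes had 55292 (soft), 64722 (intermediate) and 70716 (stiff) normalized counts, which was 0.212%, 0.244% and 0.260% of all reads. The log2 ratio of the pool was 0.35 [0.34 to 0.37] for stiff to soft, 0.23 [0.21 to 0.24] for intermediate to soft and 0.13 [0.11 to 0.14] for stiff to intermediate. Levels of different genes were compared per kilobase of exon, with exon lengths from the GENCODE vM39 annotation. On that scale the order in every library was Ccl2, Ccl7, Ccl6 and then Ccl9. In the soft library they stood at 19258, 13993, 5489 and 3331 normalized counts per kb. Ccl5 and Ccl3 followed, with Ccl5 ahead in the soft and stiff libraries and Ccl3 ahead in the intermediate library. Ccl4, Ccl8, Ccl20 and Ccl11 came next in that order throughout, with Ccl11 at 24.9 to 36.4 normalized counts per kb. The pool was thus dominated by 4 genes in each library.

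**Figure D1:**
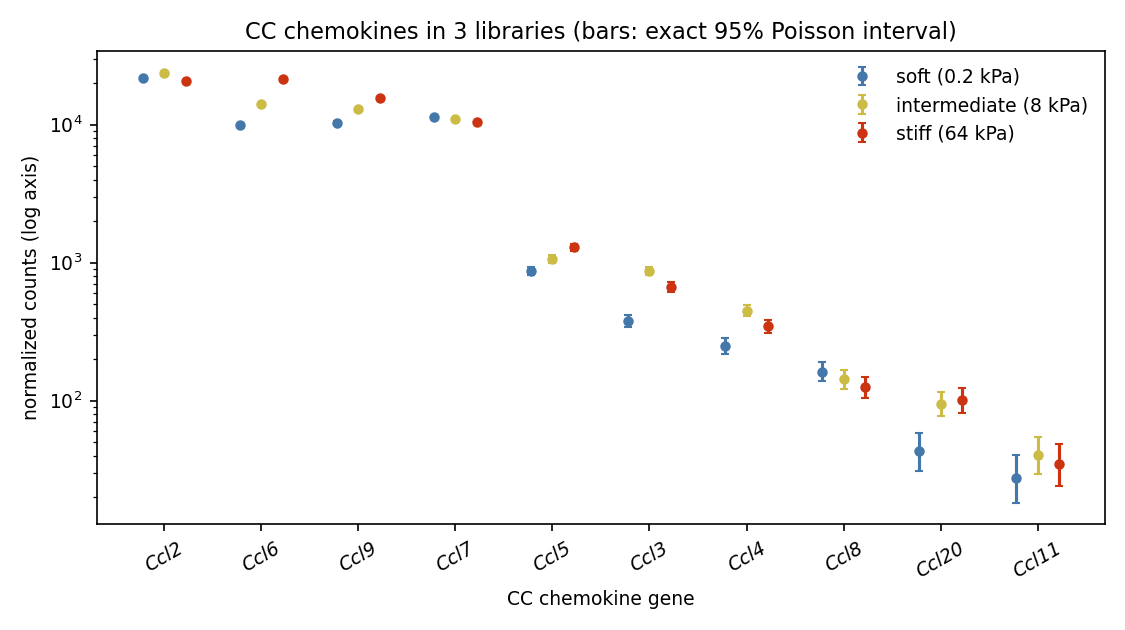
Normalized counts (log axis) of the 10 CC chemokine genes in the soft, intermediate and stiff libraries, ordered by their mean, with 1 point per library and bars for exact 95% Poisson intervals. Ccl6 stands at 9978, 14204 and 21426 normalized counts from soft to stiff, while the points of Ccl7 lie between 10442 and 11292.

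Between the stiff and the soft library, 2 of the 9 members whose mean over the libraries reached 50 normalized counts were higher by a log2 ratio of at least 1, Ccl6 and Ccl20, and none was lower by as much. Of all 11873 genes with that mean, 3.22% were higher and 0.387% lower by as much. At a log2 ratio of at least 0.5 there were 5 members higher and none lower, against 11.8% of all genes higher. Between the intermediate and the soft library, 2 members were higher by at least 1, Ccl3 and Ccl20, where 0.16% of all genes were. With a pseudocount of 10 the ratio of Ccl20 was 0.99, and Ccl3 alone passed. Between the stiff and the intermediate library no member differed by 1, against 1.25% of all genes in either direction. Ccl11, with a mean of 34.4 normalized counts, did not reach the minimum mean. Over all 10 members the median log2 ratio was 0.52 for stiff to soft, 0.42 for intermediate to soft and -0.13 for stiff to intermediate. The medians over the 14291 genes with a mean of at least 10 were 0.0004, 0.0096 and 0.0065.

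Counting error alone was small for most members. The interval of the stiff to soft ratio lay above 0 for 6 and below 0 for 3 of the 9 members, where 31.3% of all genes had an interval above and 25.9% one below 0. For intermediate to soft it lay above 0 for 7 and below 0 for none (21.8% and 13.5% of all genes), and for stiff to intermediate above 0 for 3 and below 0 for 4 (26.3% and 22% of all genes). With libraries this deep such intervals separate many genes, and they do not include variation between cultures.

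**Figure D2:**
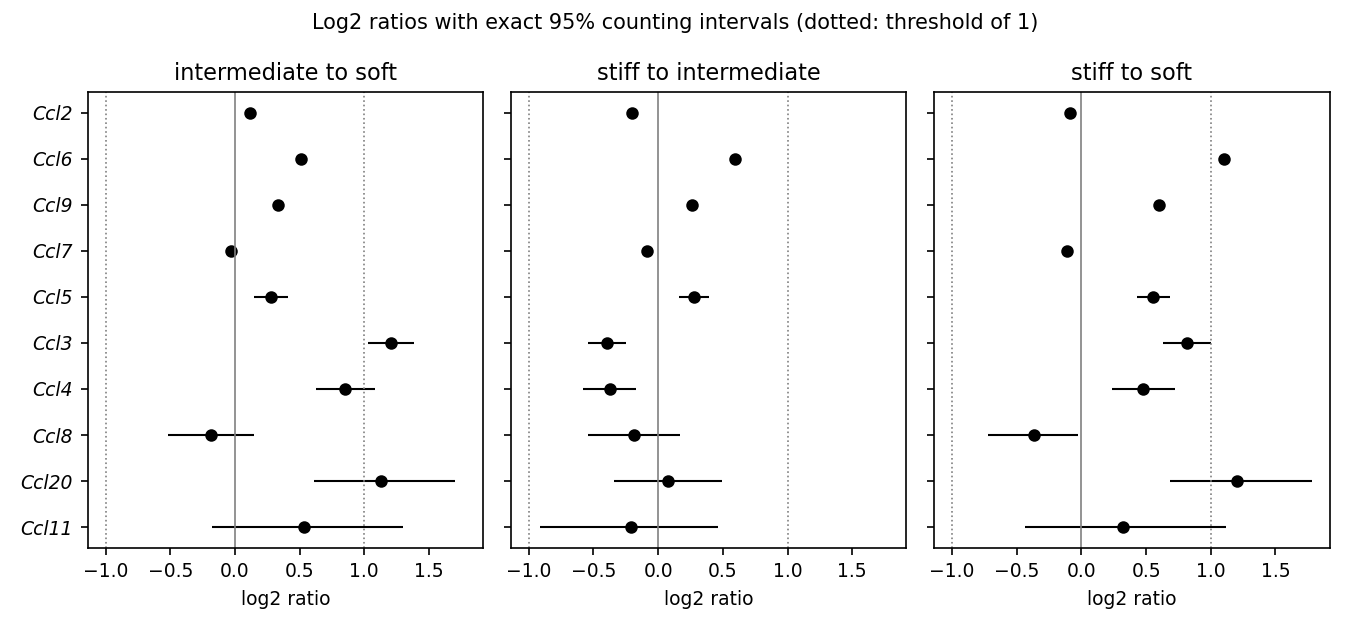
Log2 ratios (points) and exact 95% counting intervals (lines) of the 10 members for intermediate to soft, stiff to intermediate and stiff to soft, with dotted lines at -1 and 1. Ccl3 and Ccl20 lie beyond 1 in the first panel, no member does in the second, and Ccl6 and Ccl20 do in the third.

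Ccl2, Ccl7, Ccl8 and Ccl11 come first. Ccl2, the main ligand of the monocyte receptor Ccr2, lies at chromosome 11, 81926397 to 81928279, on the plus strand of GRCm39, with 3 exons. Its level was 21915 (soft), 23713 (intermediate) and 20602 (stiff) normalized counts. The intermediate library was highest and the stiff library lowest, within a narrow range. Its log2 ratio was 0.11 [0.09 to 0.14] for intermediate to soft, -0.20 [-0.23 to -0.18] for stiff to intermediate and -0.09 [-0.12 to -0.06] for stiff to soft. The last was -0.006 once the trend of all ratios with transcript length and GC content was subtracted.

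Ccl7, a second Ccr2 ligand whose gene lies next to Ccl2, had 11292 (soft), 11070 (intermediate) and 10442 (stiff) normalized counts. Its stiff to soft ratio of -0.11 [-0.15 to -0.07] became 0.02 with the length and GC trend subtracted, so its direction depends on that choice. The intermediate to soft ratio of -0.03 [-0.07 to 0.01] included 0. Per kilobase, the ratio of Ccl2 to Ccl7 was 1.38, 1.52 and 1.40 from soft to stiff, so these neighbours kept nearly the same proportion in the soft and stiff libraries.

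Ccl8 had 162, 142 and 125 normalized counts from soft to stiff. Its stiff to soft ratio was -0.37 [-0.73 to -0.02], the lowest among the members. Neither step from one level to the next had an interval that excluded 0. Ccl11, the eosinophil attractant eotaxin, rested on 27, 43 and 34 reads, and the intervals of all 3 of its ratios included 0. A difference in Ccl11 was therefore not detectable at this depth. Its stiff to soft ratio was 0.32 [-0.44 to 1.12].

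Ccl6 and Ccl9 are ligands of Ccr1 and are known as products of macrophages and other myeloid cells. Ccl6 lies at chromosome 11, 83478708 to 83483913, on the minus strand, with 4 exons. Its level went from 9978 (soft) over 14204 (intermediate) to 21426 (stiff) normalized counts, so each library stood clear of the one below it. The log2 ratio was 0.51 [0.47 to 0.55] for intermediate to soft, 0.59 [0.56 to 0.62] for stiff to intermediate and 1.10 [1.07 to 1.14] for stiff to soft, which is 2.15-fold. Of the 11873 genes, 2.25% had a stiff to soft ratio at least as high. Ccl9, on the same strand at 83463745 to 83473161, followed the same order with 10370 (soft), 13070 (intermediate) and 15683 (stiff) normalized counts. Its ratios were 0.33 [0.30 to 0.37], 0.26 [0.23 to 0.30] and 0.60 [0.56 to 0.63] in the same order of comparisons. Per kilobase, the ratio of Ccl6 to Ccl9 was 1.65, 1.86 and 2.34 from soft to stiff, so the neighbouring genes did not change in proportion. Their canonical transcripts are 73.6% identical over the best 345 aligned bases. The macrophage markers, whose median ratios were 0.44 for intermediate to soft, 0.79 for stiff to intermediate and 1.25 for stiff to soft, followed the order of Ccl6 and Ccl9, and their part in these values was not tested.

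Ccl3, Ccl4 and Ccl5 act on macrophages, T cells and NK cells. Ccl3, at chromosome 11, 83538670 to 83540191, minus strand, 3 exons, had 378 (soft), 874 (intermediate) and 666 (stiff) normalized counts. The intermediate library was the highest, and the counting intervals of the 3 levels did not overlap. Its log2 ratio was 1.21 [1.03 to 1.39] for intermediate to soft, -0.39 [-0.54 to -0.25] for stiff to intermediate and 0.81 [0.628 to 1.003] for stiff to soft. In the intermediate to soft comparison 6 of the 11873 genes, Ccl3 included, had a ratio at least as high. An antisense gene of GENCODE vM39, Gm53692, overlaps Ccl3 exons, and whether the counting used strand is not given in the sources used here. Ccl4, the close relative of Ccl3 at 83553383 to 83555509 on the plus strand, had the same order, with 249, 450 and 347 normalized counts from soft to stiff. Its intermediate to soft ratio was 0.85 [0.63 to 1.08], its stiff to intermediate ratio -0.37 [-0.58 to -0.17] and its stiff to soft ratio 0.47 [0.23 to 0.72]. The ratio of Ccl3 to Ccl4 per kilobase was 1.34, 1.72 and 1.70 from soft to stiff.

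Ccl5 departed from that order. It stood at 877, 1064 and 1290 normalized counts from soft to stiff, with ratios of 0.28 [0.15 to 0.41] for intermediate to soft, 0.28 [0.16 to 0.39] for stiff to intermediate and 0.56 [0.43 to 0.68] for stiff to soft. Each step had about the same size. Of the 12 macrophage markers, 11 were higher in the stiff than in the intermediate library, all but Fcgr1, whereas Ccl3 and Ccl4 were lower there. The part of these markers in the values of Ccl3, Ccl4 and Ccl5 was not tested.

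Ccl20, the ligand of Ccr6 on T cells and dendritic cells, lies apart from the cluster, at 83094487 to 83096888 of chromosome 1 (plus strand, 4 exons). It stood at 43.1 (soft), 95.2 (intermediate) and 100.5 (stiff) normalized counts, from 42, 101 and 98 reads. The intermediate and stiff libraries lay close together and above the soft library. Its log2 ratio was 1.13 [0.61 to 1.70] for intermediate to soft and 1.20 [0.69 to 1.78] for stiff to soft, and both intervals reach below the threshold of 1. For stiff to intermediate it was 0.08 [-0.34 to 0.49], an interval that includes 0. In the intermediate to soft comparison 9 of the 11873 genes, Ccl20 included, had a ratio at least as high.

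By position on chromosome 11 the members fall into 2 sets, a grouping made after the values had been seen. Taken as single values, the stiff to soft ratios of the 2 sets did not overlap. Counting error does not separate them fully: Ccl11 of the first set, at 0.32 from 27 and 34 reads, had an interval of -0.44 to 1.12. That interval covers the whole range of the second set. Ccl2, Ccl7, Ccl11 and Ccl8 lie within 81926397 to 82007625. Ccl5, Ccl9, Ccl6, Ccl3 and Ccl4 lie within 83416602 to 83555509, which is 1408977 bases further along. All 5 genes of the second set were higher in the stiff than in the soft library, with ratios from 0.47 to 1.10, and higher in the intermediate than in the soft library, from 0.28 to 1.21. In the first set the stiff to soft ratios ran from -0.37 to 0.32, with Ccl11 the only one above 0 as deposited, and Ccl7 also above 0 once the length and GC trend was subtracted. The sets did overlap in the other comparisons: the intermediate to soft ratios of the first set ran from -0.19 to 0.53, and the stiff to intermediate ratios from -0.21 to -0.08 in the first and from -0.39 to 0.59 in the second set. Summed, the first set had 33398 (soft), 34966 (intermediate) and 31204 (stiff) normalized counts, and the second 21852, 29661 and 39411. The stiff to soft ratio of the sums was -0.10 [-0.12 to -0.08] for the first set and 0.85 [0.83 to 0.88] for the second. A further gene of the first region did not share its values. Ccl12, a Ccr2 ligand at 81992645 to 81994466 that is not among the 10, had 88.2, 146 and 265 normalized counts from soft to stiff and a stiff to soft ratio of 1.57 [1.23 to 1.95].

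The make-up of the pool differed between libraries accordingly. Per kilobase, Ccl2 made up 43.6% (soft), 41.9% (intermediate) and 35.6% (stiff) of the summed level. The share of Ccl7 was 31.7%, 27.6% and 25.5%. The share of Ccl6 was 12.4%, 15.7% and 23.2%, and that of Ccl9 7.55%, 8.44% and 9.91%. The other 6 members together had 4.70%, 6.42% and 5.83%. Without Ccl2, the stiff to soft ratio of the pool of normalized counts was 0.59 [0.57 to 0.61] rather than 0.35.

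**Figure D3:**
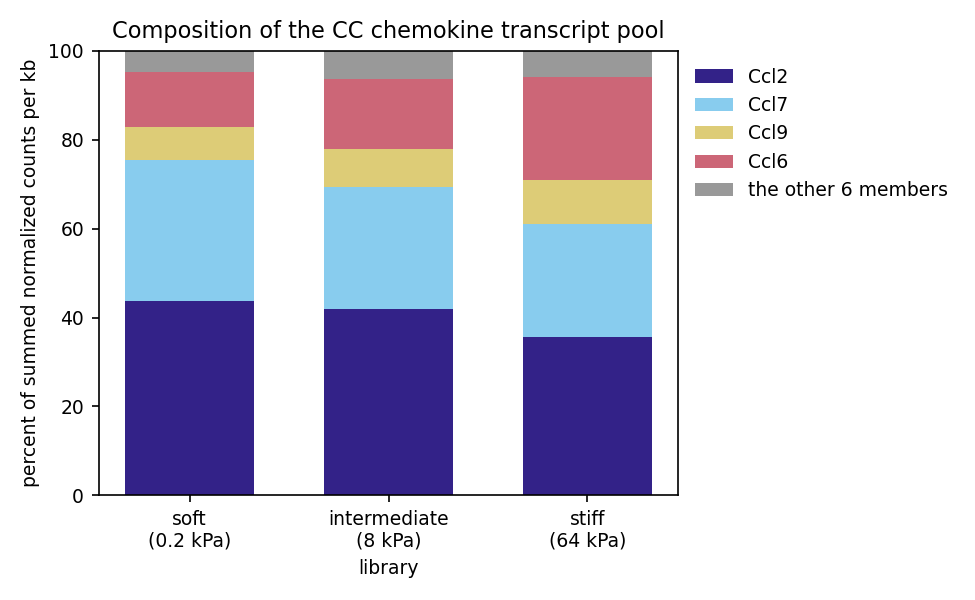
Share of each CC chemokine in the summed normalized counts per kb of the 10 members (percent, bars stacked to 100%) in the soft, intermediate and stiff libraries. The Ccl6 segment is 12.4% of the soft and 23.2% of the stiff bar, and the Ccl2 segment is 43.6% and 35.6%.

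Other ligands of the family were mostly at low levels, apart from Ccl12. Of 11 further CC ligand genes, 4 had a mean of at least 10 normalized counts: Ccl12, Ccl25, Ccl27a and Ccl28. Ccl27a, a skin-associated ligand, had 74.8, 54.7 and 50.2 normalized counts from soft to stiff, with a stiff to soft ratio of -0.57 [-1.13 to -0.03]. The intervals of Ccl25 and Ccl28 included 0 in all 3 comparisons. No read was counted for Ccl19, Ccl21a or Ccl26.

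Some of the receptors were also measured. Ccr1, a receptor for Ccl3, Ccl5, Ccl6 and Ccl9, had 1667 (soft), 2198 (intermediate) and 2479 (stiff) normalized counts. Its stiff to soft ratio was 0.57 [0.48 to 0.66]. Ccr3, the eotaxin receptor, stood between 42.4 and 68.7 normalized counts, lowest in the intermediate library. Ccr2, the receptor for Ccl2, Ccl7 and Ccl12, had 8, 4 and 2 reads, and Ccr6, the receptor for Ccl20, had none in any library. Neither Ccr1 nor Ccr3 passed a log2 ratio of 1 between the stiff and the soft library.

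Atypical receptors bind chemokines without the usual signalling and remove them. Ackr2, a scavenger of inflammatory CC chemokines, had 61.5 (soft), 67.9 (intermediate) and 36.9 (stiff) normalized counts, with a stiff to soft ratio of -0.72 [-1.37 to -0.12]. Ackr4, which takes up Ccl19 and Ccl21, had 21, 5 and 6 reads, with a stiff to soft ratio of -1.66 [-3.41 to -0.45]. For Ccrl2, at 15, 22 and 19 reads, all intervals included 0, and Ackr1 had no read.

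Of 12 genes that carry the signal of chemokine receptors, 10 were higher in the stiff than in the soft library, as were 7269 of all 14291 genes with a mean of at least 10. Of the 11 whose mean reached 50, 3 were higher by a log2 ratio of 1 or more (3.22% of all genes), the haematopoietic genes Dock2, Rac2 and Pik3cg. Dock2, which activates Rac in migrating leukocytes, had 63.6, 163 and 254 normalized counts from soft to stiff and a stiff to soft ratio of 1.98 [1.59 to 2.43]. For Rac2 the ratio was 1.37 [1.17 to 1.58]. The broadly expressed Gnai2 and Gnb1 differed less, with ratios of 0.29 and 0.17. The list's median stiff to soft ratio was 0.73 and its median intermediate to soft ratio 0.23. Leukocyte-restricted genes of this list and the macrophage markers were high in the same library, and the part of the latter was not tested.

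A list of 14 genes that control transcription or decay of chemokine transcripts had a median ratio of 0.36 for stiff to soft, 0.27 for intermediate to soft and 0.07 for stiff to intermediate. None of the 14 passed a log2 ratio of 1 in any comparison. All 14 were higher in the intermediate than in the soft library, as were 7521 of the 14291 genes, and the interval lay above 0 for 12 of the 14, against 21.8% of all genes. Of the 14, 11 were higher in the stiff than in the soft library, against 7269 of the 14291 genes, though Relb and Nfkbia, both at 0.02, lay too close to 0 to keep that sign when libraries were scaled by their total. Rela, the main activating subunit of NF-kappaB, had 2086, 2495 and 2955 normalized counts from soft to stiff. Its stiff to soft ratio was 0.50 [0.42 to 0.59]. Zfp36, which speeds the decay of AU-rich cytokine transcripts, stood at 1493, 1912 and 2347 normalized counts, with a stiff to soft ratio of 0.65 [0.56 to 0.75]. Zc3h12a, an endonuclease that degrades inflammatory transcripts, had 532, 766 and 511 normalized counts from soft to stiff. Nfkbiz, an inducible cofactor of NF-kappaB, had a stiff to soft ratio of -0.72 [-1.01 to -0.44].

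**Figure D4:**
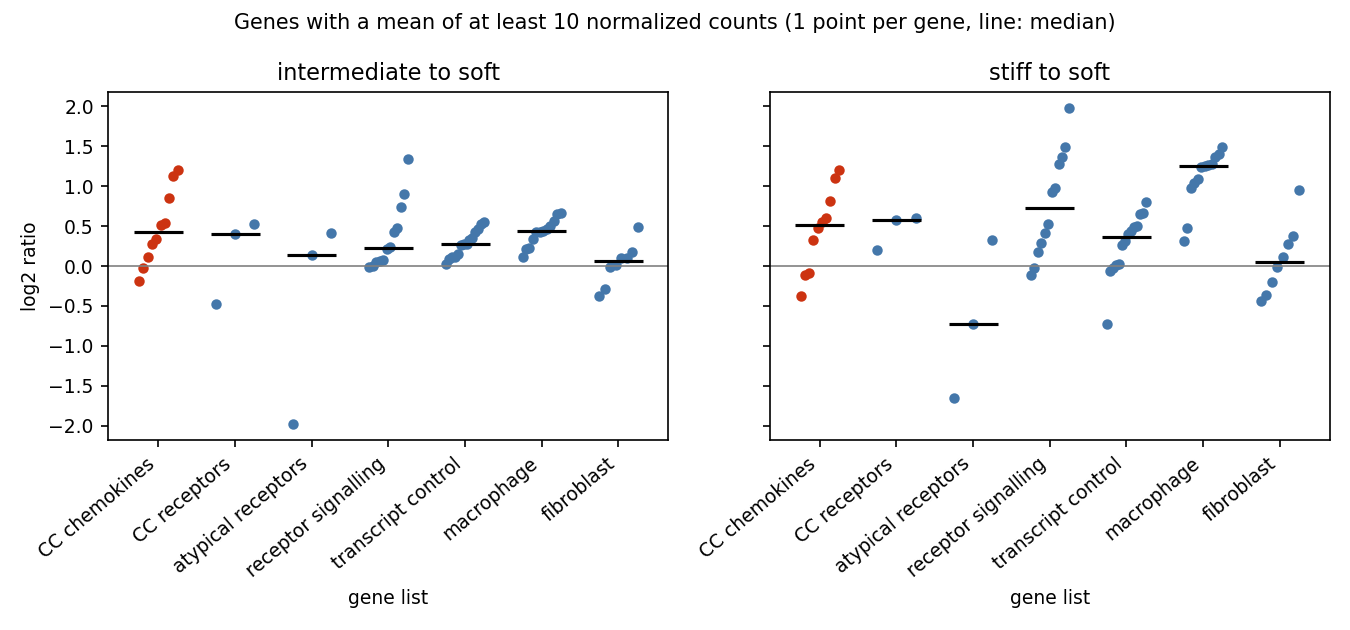
Log2 ratios of intermediate to soft (left) and stiff to soft (right) for the 10 CC chemokines (red) and for genes of 6 lists whose mean reached 10 normalized counts (blue), with 1 point per gene and a line at each median. The chemokines spread from -0.37 to 1.20 in the right panel, around a median of 0.52, and the 12 macrophage markers have a median of 1.25. Both panels share the soft library.

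Genes with the most similar course over the 3 libraries were sought for the 3 members with the highest mean normalized counts, a choice not corrected for length, as the smallest Euclidean distance between pairs of log2 ratios (intermediate to soft, stiff to soft) among 10665 named genes with a mean of at least 100. For Ccl2 they were Ap4m1, Ccdc51 and Garem1, at distances of 0.0045 to 0.0089. For Ccl6 they were Zbtb20, Map7d1 and Trpv2, at 0.015 to 0.026, and for Ccl9 they included Dock6 and Synpo, at 0.0061 and 0.0062. With 3 libraries a course is only a pair of ratios, and many genes lie close to any of them.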

How the data were processed

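RNA was measured in 3 libraries, 1 per stiffness level, made with a stranded mRNA kit per the labels' protocols. The deposited signal values hold, for each gene, its read count over the size factor of the library, as normalized by DESeq2 per the file names. The submitters' processing notes name bcl2fastq 2.20.0, STAR 2.7.9a, featureCounts, Subread 2.0.1, DESeq2 1.34.0 and build GRCm39; the annotation and strand setting are not given in the sources used here. The 3 deposited files were identical, and columns were assigned by sample title. In each column 100% of positive values were whole multiples of the smallest one (tolerance 0.01), and reads were recovered by dividing by it. No count test was made, since there are no replicates.

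Genes were counted as past the fold at a log2 ratio of at least 1 in size (pseudocount 1) and a mean of at least 50 normalized counts. All 10 members are named; genes of the lists were named with a mean of at least 10 or as a defining gene. Lists covered other CC ligands, CC receptors, atypical receptors, receptor signalling, transcript control, and markers of macrophages, neutrophils, dendritic, T and NK, B, mast and basophil, endothelial, fibroblast, telocyte and erythroid cells. Some genes of these lists are not reported here. The members and lists were chosen with earlier results of these data known. Positions and lengths are from GENCODE vM39 (GRCm39), matched by symbol. Alternatives were other pseudocounts, minimum means, thresholds, 2 scalings, and subtraction of a robust local linear trend over the 300 nearest of the genes in transcript length and GC content. The counting steps were tested on simulated data. Tools were BLAST+ 2.17.0, scipy 1.17.1, pandas 2.3.3, numpy 2.4.6 and Python 3.11.15.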

Additional observations from a re-analysis of the deposited data

How the results depend on the processing

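With 1 library per level no replicate could be left out, and depth limits statements on Ccl11, Ccl20 and Ccl8. No paired analysis was possible because each group has 1 library and the result comes from no test. Of 30 member ratios, 18 stayed within their counting intervals under every alternative tried. The other 12 left it under scaling by library total or subtraction of the length and GC trend, and only Ccl7 then changed sign against an interval that excluded 0, to 0.018 for stiff to soft and 0.00077 for stiff to intermediate with the trend subtracted; the cause was not tested.

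Scaling by library total gave summed ratios of 0.30 (stiff to soft), 0.21 (intermediate to soft) and 0.091 (stiff to intermediate), and leaving out Ccl2 gave 0.59, 0.30 and 0.29. Members past the fold between stiff and soft numbered 5 at a threshold of 0.5, 0 at 2 and 1 with a mean of at least 200, against 2. Between intermediate and soft they numbered 4, 0 and 1, and 1 with a pseudocount of 10, against 2. Between stiff and intermediate there was 1 at 0.5, against 0. Fewer or more genes meet a threshold by construction.

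All genes past the fold numbered 428, 20 and 148 for stiff to soft, intermediate to soft and stiff to intermediate. Without a minimum mean the counts were 5827, 3646 and 3904. At a minimum mean of 10 they were 822, 215 and 451, and at a minimum of 200 they were 238, 8 and 72. By threshold they were 1850, 546 and 1050 at 0.5, and 17, 1 and 8 at 2. Subtracting the trend gave 276 for stiff to soft and 12 for intermediate to soft, and a pseudocount of 10 gave 10 for the latter.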
